A study of Mus musculus with 6 samples.

Results

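The genes described are the 6 that mark the acetylcholine-releasing interneurons of the striatum: Chat, Slc18a3, Slc5a7, Lhx8, Isl1 and Ache. They were listed by name, and every probe set that the platform annotation gives to 1 of them alone was taken, which yielded 7 probe sets for 6 genes, of 18193 genes with such a probe set. Isl1 had 2 probe sets and the other 5 genes had 1 each. Values come from Affymetrix arrays of striatal RNA from 3 PGC-1alpha null mice (PGC-1a-/-, here KO) and 3 wild-type littermates (PGC-1a+/+, here WT), 1 array per mouse. All 6 mice were female and 6 months old, and came from crosses of heterozygous founders. The labels name no Cre driver, promoter or agent for either group. For KO 3 the molecule is labelled as cytoplasmic RNA, unlike the other 5 mice (total RNA), although the design text gives total RNA for all, so values without KO 3 are given as well. Whole striatum was used, so fewer cholinergic cells and less RNA per cell cannot be told apart.

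Cholinergic interneurons are few among striatal neurons, yet their axons supply nearly all of the region's acetylcholine. Choline acetyltransferase (Chat) makes the transmitter, the vesicular transporter (Slc18a3) loads it, acetylcholinesterase (Ache) splits it in the synaptic cleft, and the high-affinity choline transporter (Slc5a7) returns the choline. The LIM homeodomain factors Lhx8 and Isl1 set this cell fate in the ventral forebrain and drive the genes of the transmitter pathway. PGC-1alpha, encoded by Ppargc1a, is a transcriptional coactivator that promotes mitochondrial biogenesis, and among forebrain interneurons it is best known from the parvalbumin class.

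No change of the cholinergic genes between the genotypes passed the test. Of the 6 member probe sets bright enough to be tested, 0 had a limma adjusted p under 0.05, in a comparison that called 0.47% of all 27022 probe sets tested (127 probe sets, 48 of them higher and 79 lower in KO). At an unadjusted limma p under 0.05 the count was also 0, against 9.17% of all probe sets. In 4 of the 6 the KO mean was lower and in 2 it was higher, with a median difference of -0.04 on the log2 scale beside 0.00 over all probe sets tested. All 7 member probe sets had overlapping KO and WT signals, while 14.4% of all probe sets tested had groups that did not overlap. Ppargc1a, the targeted gene, fell in all 5 of its probe sets, with differences from -1.93 to -1.12. Without KO 3 the member count was again 0, with differences from -0.13 to 0.19 over the 6 tested probe sets, and the whole array gave 87 calls.

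**Figure D1:**
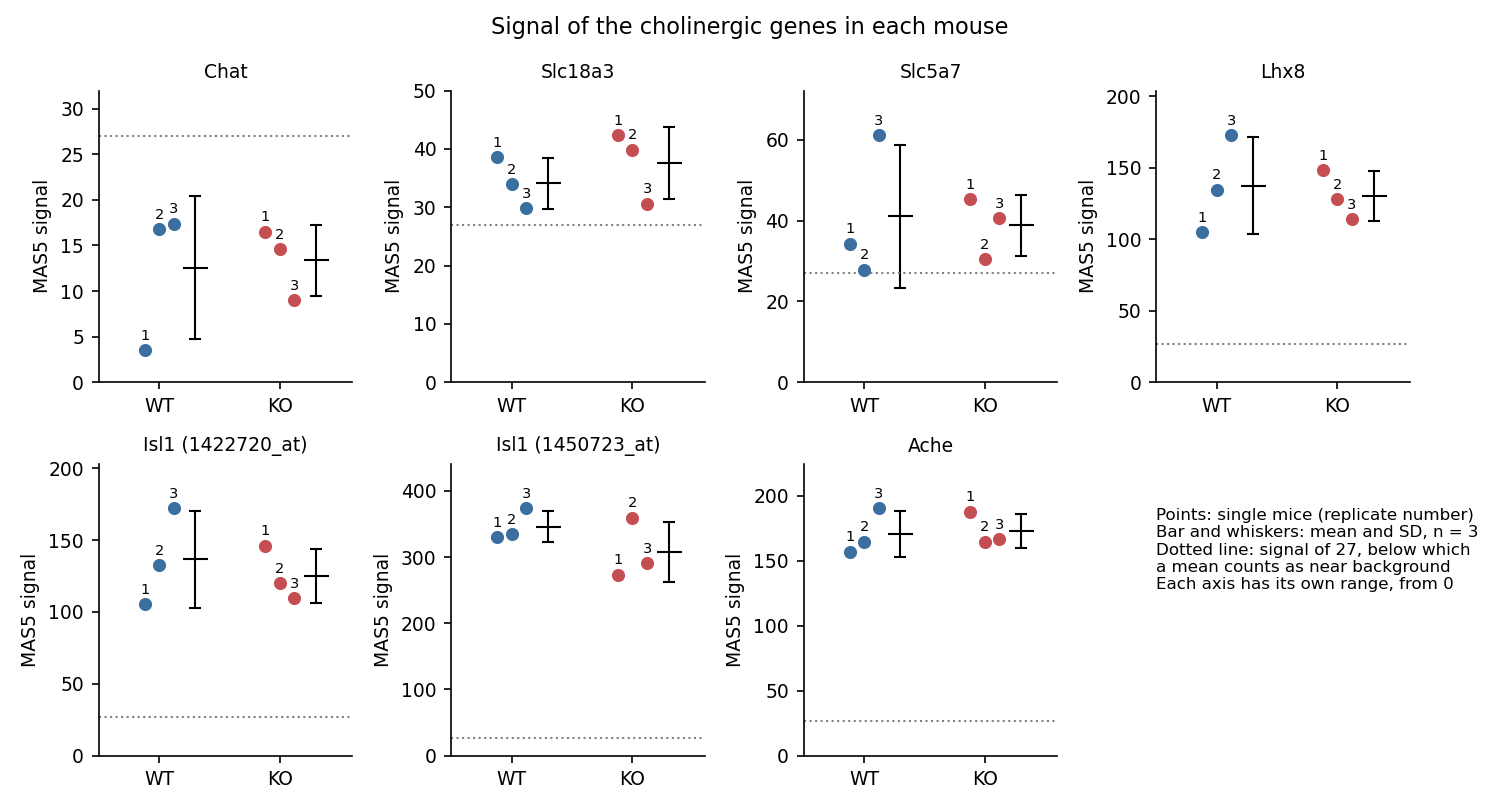
MAS5 signal on a linear axis from 0 for each of the 7 probe sets, with WT mice in blue and KO mice in red, each point 1 mouse with its replicate number, and the mean with its SD (n = 3) beside it. The dotted line is the signal of 27, and all 6 Chat values, from 3.5 to 17.4, lie under it, whereas the other panels show KO and WT points that overlap.

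The genes that define the cell by its transmitter were dim on these arrays. Chat lay below a mean signal of 27, under which a probe set counts as near background, and Slc18a3 at 35.9 was the member just above that mark. Lhx8, both Isl1 probe sets and Ache had mean signals of 130.9 to 326.9. Of other genes listed for striatal cholinergic interneurons, Ecel1 was tested, Tacr1 lay under the filter on dim probe sets, and Slc17a8, Slc10a4, Drd5 and Chrm2 had no single-symbol probe set in the annotation used here. The name of the cell type therefore rests here on its transcription factors and Ache, and only weakly on Chat, Slc18a3 and Slc5a7. Genes of motor neurons and hindbrain cholinergic cells, Mnx1 and Prph, were both under the filter.

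Chat and Slc18a3 form a single locus on mouse chromosome 14. In the GRCm38.p6 annotation Slc18a3 lies wholly within the span of Chat, on the same strand, and their start sites are 1059 bases apart. The 250 bases before each start are shown because these genes are the best known case of an enzyme and a transporter expressed from 1 locus. They are RefSeq sequences of GRCm38.p6, given 5′ to 3′ on the minus strand, chr14:32465910-32466159 for Chat and chr14:32464851-32465100 for Slc18a3. Capitals mark TGACG or its reverse complement CGTCA, the core of the cAMP response element.
Chat: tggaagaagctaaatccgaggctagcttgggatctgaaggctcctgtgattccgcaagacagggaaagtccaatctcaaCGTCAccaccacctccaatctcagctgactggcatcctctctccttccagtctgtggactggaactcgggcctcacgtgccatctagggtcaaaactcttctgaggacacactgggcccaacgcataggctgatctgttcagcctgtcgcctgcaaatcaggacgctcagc
Slc18a3: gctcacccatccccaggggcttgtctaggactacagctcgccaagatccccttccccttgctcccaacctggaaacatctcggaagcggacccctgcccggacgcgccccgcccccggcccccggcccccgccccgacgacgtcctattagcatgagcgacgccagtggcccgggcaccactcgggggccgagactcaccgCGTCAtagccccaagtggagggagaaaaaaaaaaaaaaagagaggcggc
Each window holds 1 such core, which 17.8% of 32851 windows of the same length also hold on either strand. This core was chosen after the sequences were seen.

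Chat, the synthesising enzyme, read 16.5, 14.6 and 9.0 in KO 1 to 3 and 3.5, 16.8 and 17.4 in WT 1 to 3. WT mice held both the lowest and the highest values. Because all of them are near background, Chat was not part of the main test. With no filter on dim probe sets the difference was 0.07 (95% interval -0.50 to 0.65, limma adjusted p = 0.975, in a fit that called 0.115% of probe sets). This interval is on the log2 scale after adding 16 to each signal, which understates the change of a probe set this dim.

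Slc18a3, the vesicular acetylcholine transporter, read 42.4, 39.9 and 30.6 in KO and 38.6, 34.0 and 29.8 in WT. The highest values were in KO 1 and KO 2 and the lowest in WT 3 and KO 3. The means were 37.6 ± 6.22 in KO and 34.1 ± 4.40 in WT (SD, n = 3), a difference of 0.09 (SE 0.20, 95% interval -0.34 to 0.53, limma adjusted p = 0.933).

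Slc5a7, the choline transporter of the nerve terminal, read 45.3, 30.5 and 40.6 in KO and 34.3, 27.8 and 61.2 in WT. WT 3 stood above the other mice and WT 2 was lowest, so the WT range enclosed all KO values. The difference was -0.03 (SE 0.24, 95% interval -0.55 to 0.49, limma adjusted p = 0.989), and it turned to 0.02 with quantile normalization or with median-centred arrays. Leaving out WT 3 made it 0.21 and leaving out KO 2 made it 0.09, neither past the threshold. The interval places the KO level of Slc5a7, taken as signal plus 16, between 0.685 and 1.41 times that of WT. For Slc18a3 the KO level, taken in the same way, lies between 0.790 and 1.44 times that of WT. Both probe sets are dim, so these bounds understate the range for the signal itself.

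Ache, the enzyme that ends the signal, is also made by neurons that respond to acetylcholine. It read 187.7, 164.6 and 166.6 in KO and 156.9, 164.8 and 190.2 in WT. KO 1 and WT 3 were high and WT 1 was low, and the WT range enclosed all KO values. The difference was 0.02 (SE 0.12, 95% interval -0.24 to 0.28, limma adjusted p = 0.981). It turned to -0.04 without KO 1 and to -0.03 without WT 1, neither past the threshold. The interval places the KO level of Ache, taken as signal plus 16, between 0.846 and 1.21 times that of WT.

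**Figure D2:**
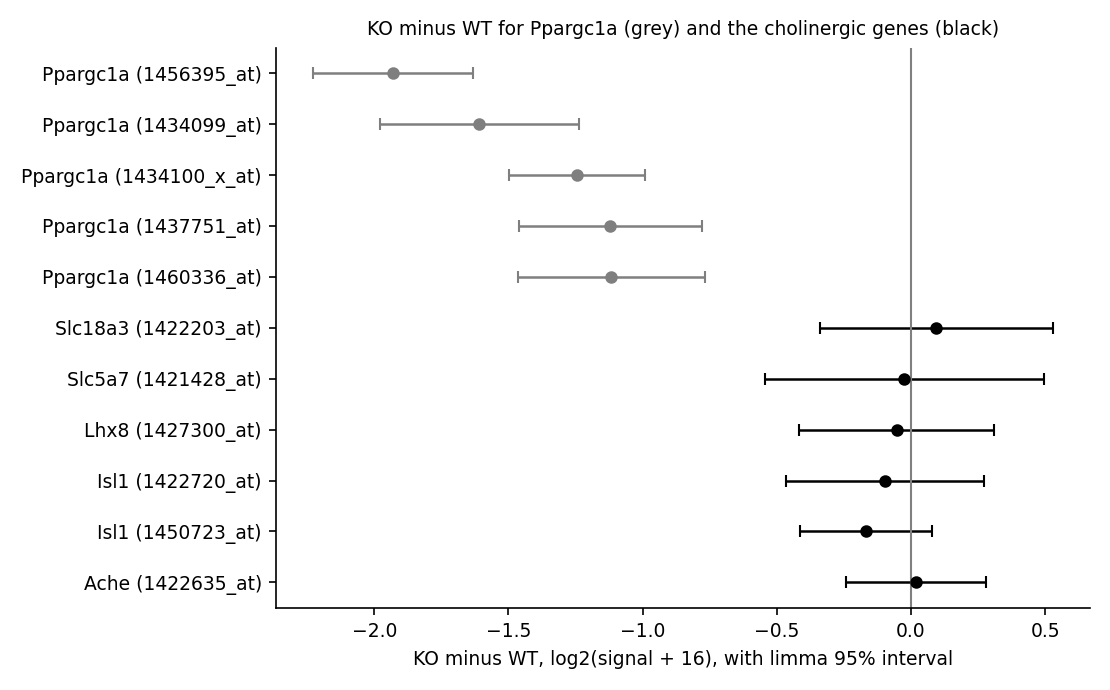
Difference between KO and WT in log2(signal + 16) with limma's 95% interval, for the 5 probe sets of Ppargc1a in grey and the 6 tested cholinergic probe sets in black. The Ppargc1a differences run from -1.93 to -1.12, and every cholinergic interval includes 0.

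The transcription factor genes gave brighter signals. Lhx8 read 148.3, 127.8 and 114.0 in KO and 104.8, 134.6 and 172.8 in WT. WT 3 was highest and WT 1 lowest, with all KO mice between them. The means were 130.0 ± 17.3 in KO and 137.4 ± 34.1 in WT (SD, n = 3), a difference of -0.05 (SE 0.17, 95% interval -0.42 to 0.31, limma adjusted p = 0.957). Its sign depended on single mice: without WT 3 the difference was 0.11 and without KO 3 it was 0.03.

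Isl1 was measured by 2 probe sets that the annotation ties to the same accession. The first, 1422720_at, read 146.0, 120.2 and 109.4 in KO and 105.3, 132.4 and 172.0 in WT. Its mice followed the order seen for Lhx8, from WT 3 down through KO 1, WT 2, KO 2 and KO 3 to WT 1. The difference was -0.10 (SE 0.17, 95% interval -0.47 to 0.27, limma adjusted p = 0.914), and 0.07 without WT 3. The second, 1450723_at, read 273.2, 359.4 and 290.8 in KO and 330.2, 334.6 and 373.3 in WT. Here KO 1 was lowest, although it was second highest by the first probe set. The difference was -0.17 (SE 0.11, 95% interval -0.41 to 0.08, limma adjusted p = 0.717), the largest in size among the 6 tested member probe sets. Isl1 is also known from developing neurons of the direct striatal output pathway, so its signal is not proper to cholinergic cells alone.

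The spread over mice can be set beside the difference between genotype means. The highest array exceeded the lowest 1.65-fold for Lhx8, 1.63-fold for Isl1 by 1422720_at, 2.20-fold for Slc5a7 and 1.21-fold for Ache, while KO means were 94.4% to 101.4% of WT means for Slc5a7, Lhx8 and Ache and 91.7% for this Isl1 probe set. For Isl1 by 1450723_at the highest array exceeded the lowest 1.37-fold and the KO mean was 89.0% of WT. For Slc18a3 these values were 1.42-fold and 110.3%. An exact permutation test of each probe set over the 6 mice gave p between 0.3 and 1, where 3 against 3 allows no less than 0.1.

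Lhx8 varied together with 1 of the 2 Isl1 probe sets from mouse to mouse. Over the 6 mice Pearson's r between Lhx8 and Isl1 by 1422720_at was 0.992 (exact permutation p = 0.00139, the smallest that the 720 pairings allow, and 0.0292 after Benjamini-Hochberg adjustment over the 21 pairs of member probe sets). Spearman's rho was 1, since the mice stood in the same order (exact permutation p = 0.00278, adjusted p = 0.0583). With the genotype means removed r was 0.996, and without WT 1 and WT 3, the mice farthest from the median of Lhx8, it was 0.990. With median-centred arrays r was 0.991 and its adjusted exact permutation p was 0.0583, so the call depends on the scaling while r itself hardly moved. Of the 21 pairs 6 had an unadjusted Pearson exact p under 0.05, and this pair alone passed the adjustment; by Spearman's rho the counts were 3 and 0.

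**Figure D3:**
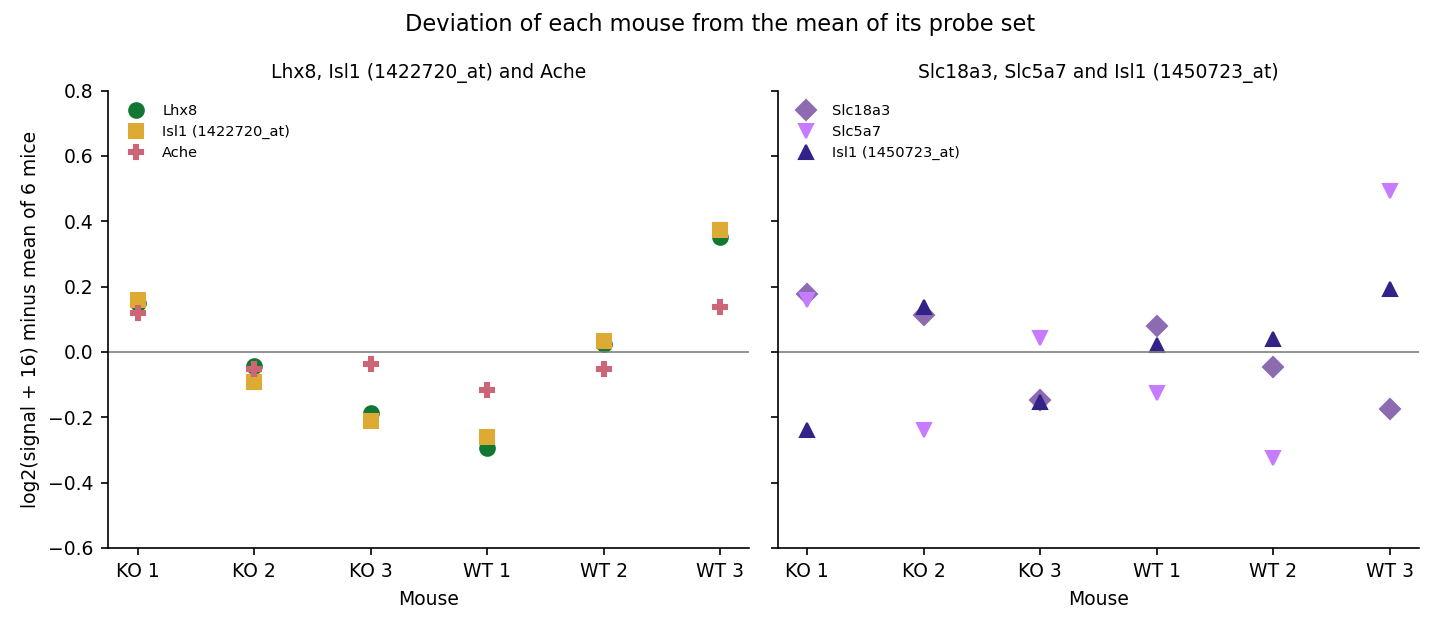
Deviation of each mouse from the mean of its probe set, in log2(signal + 16), for Lhx8, Isl1 by 1422720_at and Ache on the left and for Slc18a3, Slc5a7 and Isl1 by 1450723_at on the right, with 1 symbol per mouse and probe set. On the left Lhx8 and Isl1 nearly coincide in every mouse, with WT 3 highest and WT 1 lowest for all 3 probe sets, while the probe sets on the right follow other orders.

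Ache followed Lhx8 less closely, and that relation leaned on the outer mice. Its r with Lhx8 was 0.901 (exact permutation p = 0.0181, adjusted p = 0.117) and fell to 0.725 without WT 1 and WT 3, with a Spearman rho of 0.829 (exact permutation p = 0.0583, adjusted p = 0.245). Ache with Isl1 by 1422720_at gave r = 0.901 (exact permutation p = 0.00972, adjusted p = 0.102), rho = 0.829 and, without WT 1 and WT 3, r = 0.736. Slc5a7 with Ache gave r = 0.833 (exact permutation p = 0.0472, adjusted p = 0.165), rho = 0.771 (exact permutation p = 0.103) and, without WT 2 and WT 3, r = 0.776. Chat with Lhx8 gave r = 0.854 (exact permutation p = 0.0222, adjusted p = 0.117), rho = 0.943 (exact permutation p = 0.0167, adjusted p = 0.117) and, without KO 3 and WT 1, r = 0.774, but all Chat values lie near background. Slc18a3 had no pair with an unadjusted exact p under 0.05: its r ran from -0.395 with Slc5a7 to -0.088 with Chat, which shares its locus. Those values rest on few mice, since without KO 3 and WT 3 the r with Slc5a7 was 0.823. The other Isl1 probe set, 1450723_at, had an r of 0.253 with Lhx8 (exact permutation p = 0.631, adjusted p = 0.893), and -0.204 without WT 1 and WT 3. The Isl1 probe sets had an r of only 0.246 with each other.

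**Figure D4:**
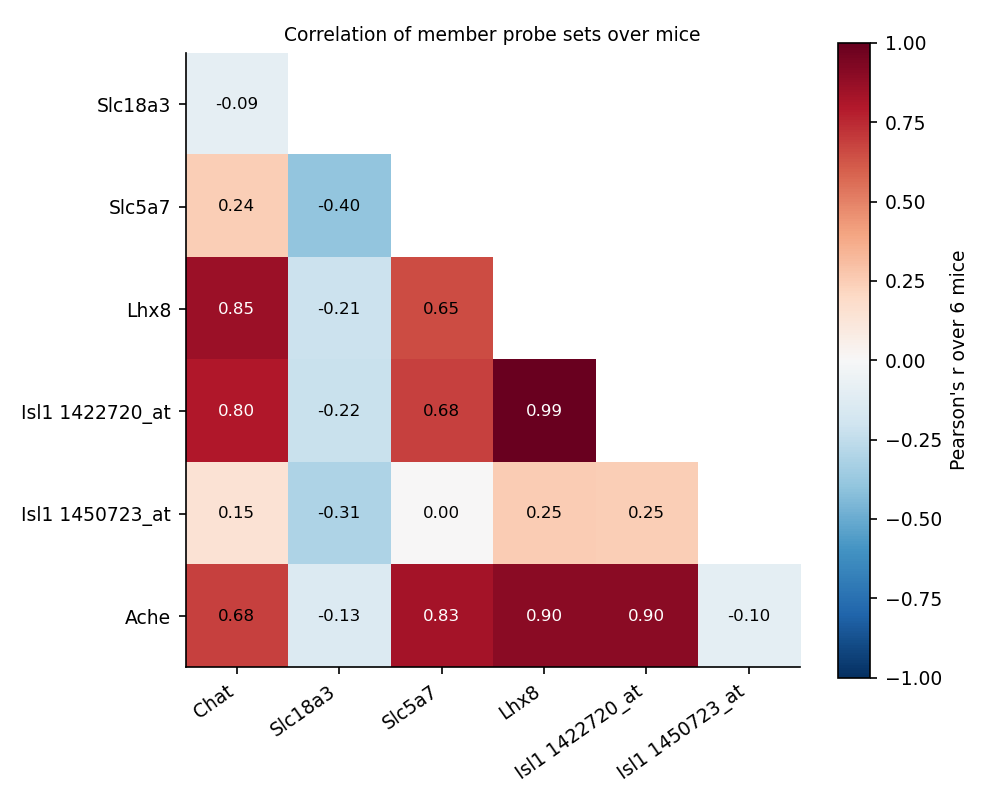
Pearson's r over 6 mice for each of the 21 pairs of member probe sets, on log2(signal + 16), from blue at -1 to red at 1. Lhx8 with Isl1 1422720_at stands at 0.99, the Slc18a3 values with the other probe sets are all below 0, and Isl1 1450723_at has low values with all others.

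The sequences before the start sites of Lhx8 and Isl1 are shown because Lhx8 and 1 of the 2 Isl1 probe sets moved together over mice. They are RefSeq sequences of GRCm38.p6, 250 bases each, given 5′ to 3′ on the minus strand, chr3:154330561-154330810 for Lhx8 and chr13:116309689-116309938 for Isl1, with the same core in capitals.
Lhx8: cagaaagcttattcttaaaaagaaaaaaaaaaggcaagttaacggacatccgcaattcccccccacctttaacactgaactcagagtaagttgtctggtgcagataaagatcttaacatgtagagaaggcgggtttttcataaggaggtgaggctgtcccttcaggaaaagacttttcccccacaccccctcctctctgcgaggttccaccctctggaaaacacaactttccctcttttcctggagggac
Isl1: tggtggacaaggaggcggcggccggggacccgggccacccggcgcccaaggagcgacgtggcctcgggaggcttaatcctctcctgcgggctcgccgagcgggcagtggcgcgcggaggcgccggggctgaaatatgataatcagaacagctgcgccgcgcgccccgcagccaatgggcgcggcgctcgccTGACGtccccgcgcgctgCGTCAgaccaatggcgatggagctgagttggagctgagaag
The Isl1 window holds 2 such cores and the Lhx8 window none, so these windows do not share it. They hold 71.2% G and C for Isl1 and 46.0% for Lhx8. The LIM homeodomain core TAATTA, the estrogen-related receptor element TCAAGGTCA and the full cAMP response element TGACGTCA were searched on both strands in the windows of all 6 genes. None held any of them, against 4.84%, 0.387% and 1.55% of all windows, which says only that these letters are not in these 250 bases. The core TGACG was found before Chat, Slc18a3 and Isl1, and not before Slc5a7, Lhx8 or Ache.

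Among all 22670 other tested probe sets with 1 gene symbol, Isl1 1422720_at was the one most like Lhx8 over the 6 mice (r = 0.992). In the other direction Lhx8 had only rank 4 for Isl1 1422720_at, behind Gm13889, Csnk1g2 and Klf16. Other genes came close to it, with Slc38a10 next at an r of 0.990 with Lhx8. At the looser bound of 0.9, 188 probe sets, 0.829%, had an r at least as high. Ache had rank 187 and Isl1 1450723_at rank 7138 for Lhx8. These ranks were computed after the correlation had been seen. For the mean of the 5 tested members each gene entered by its brightest tested probe set, so Isl1 by 1450723_at. The 5 other genes most similar to that mean were Drg1, Nol11, Slc25a30, Pde4dip and Inpp5f (r from 0.984 to 0.990 over 6 mice). That mean stood highest in WT 3, at 0.20 above the average of the mice on the log2 scale, and lowest in KO 3, at -0.10. With genotype means removed the most similar were Psmd6, Gm9112, Nr2c2, 2410022M11Rik and Kif3a (r from 0.997 to 0.999), with no gene in common between these lists.

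The wider machinery of acetylcholine signalling gave no call either. Over 5 lists of 48 genes, 39 had a single-symbol probe set and 20 were tested, of which 13 were higher and 7 lower in KO, with a median difference of 0.05 beside 0.00 for all probe sets. In limma 0 of the 20 passed and 3 had an unadjusted p under 0.05, where 9.17% of all probe sets did. The list for choline and acetylcholine handling had 7 of 10 tested genes higher and 3 lower. Chkb, a choline kinase, gave -0.22 (adjusted p = 0.624) and Prima1, which anchors acetylcholinesterase in the membrane, gave 0.18 (adjusted p = 0.791). Butyrylcholinesterase, Bche, the other enzyme that splits acetylcholine, gave -0.09 (adjusted p = 0.955).

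Of the receptors, most were too dim to test. Chrm1 was the only muscarinic gene tested, with a KO mean of 555.3 ± 15.1 against 573.5 ± 82.3 (SD, n = 3) and a difference of -0.04 (limma adjusted p = 0.953). Chrm3 and Chrm4 lay under the filter, and Chrm2 and Chrm5 had no single-symbol probe set in the annotation used here. Of 13 nicotinic genes with a single-symbol probe set, 9 lay under the filter and 4 were tested, 2 higher and 2 lower. Lynx1, a membrane-anchored protein that dampens nicotinic receptors, came nearest to a call. It read 1234.2, 1084.7 and 1072.8 in KO and 1588.2, 1599.3 and 1322.8 in WT, so every KO mouse was below every WT mouse. Groups that do not overlap were seen in 14.4% of all probe sets tested. The exact permutation p of Lynx1 was 0.1, the least that 3 against 3 allows. The Lynx1 difference was -0.40 (SE 0.09, limma adjusted p = 0.100), and a second Lynx1 probe set gave -0.49 (adjusted p = 0.191). Without WT 3 the first passed, at -0.49 (adjusted p = 0.0379), and over all settings its adjusted p ran from 0.0379 to 0.412. Chrna7, the alpha7 receptor subunit, gave 0.31 (adjusted p = 0.455) and 0.47 (adjusted p = 0.554) by its probe sets, and the brighter of these overlapped between the groups.

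**Figure D5:**
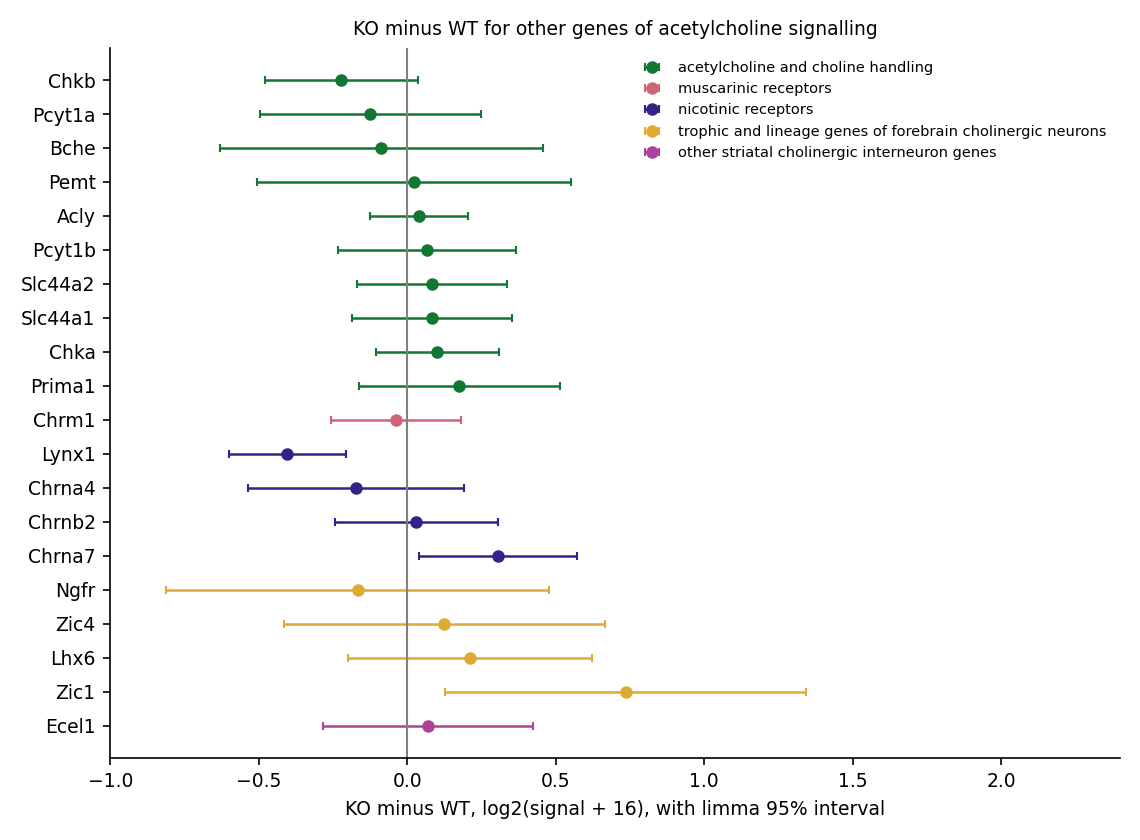
Difference between KO and WT in log2(signal + 16) with limma's 95% interval for the 20 tested genes of 5 lists, each by its brightest tested probe set and coloured by list. The intervals of Lynx1 (difference -0.40), Chrna7 (0.31) and Zic1 (0.74) leave out 0, but none of the 20 passed adjustment over all probe sets.

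Genes of the lineage and of its trophic support were also compared. Lhx6, which is expressed with Lhx8 in the embryonic ganglionic eminence, gave 0.21 (adjusted p = 0.793), with WT 1 the lowest mouse at 68.5 and the others between 118.4 and 129.7. Zic1, a factor of septal and ventral forebrain cells, read 791.7, 945.0 and 772.5 in KO and 613.0, 254.8 and 761.9 in WT, a difference of 0.74 (adjusted p = 0.416). The WT 2 value lay far below the rest. By a second Zic1 probe set the difference was 0.675 (limma adjusted p = 0.496) and the groups overlapped, with WT 2 again lowest at 187.6. Nkx2-1, Gbx1 and Gbx2 were under the filter. Ecel1, a membrane peptidase of cholinergic and other neurons, read 174.0, 204.9 and 153.3 in KO and 128.8, 173.3 and 208.1 in WT, a difference of 0.07 (adjusted p = 0.941). WT 3 was its highest and WT 1 its lowest mouse, as for Lhx8, Ache and Isl1 by 1422720_at.

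Markers of other cell types were summed over each list in every mouse, as linear signals, so the brightest genes of a list weigh most. Calb2, which encodes calretinin and was picked after its values were seen, also had its highest signal in WT 3 (228.8) and its lowest in WT 1 (59.9), so these ends are not particular to cholinergic genes. The summed signal of the cholinergic members themselves, with Isl1 by 1450723_at, was highest in WT 3 (844.7) and lowest in KO 3 (651.6). The summed signal of 6 genes of septum, pallidum and basal forebrain, where other cholinergic neurons lie, ran from 982.6 to 1120.2 in KO and from 413.2 to 929.5 in WT, with Nkx2-1, Npas1 and Gbx1 under the filter and none at 0. It was lowest in WT 2, not in WT 1, and most of it was Zic1, with 945.0 of 1120.2 in KO 2 and 254.8 of 413.2 in WT 2. Ngfr (difference -0.17) and Trpc4 (0.09), by their brightest tested probe sets, overlapped between the groups. A second tested Trpc4 probe set, with a mean signal of 29.6, gave 0.60 (limma adjusted p = 0.355), and its groups did not overlap. Of the genes under the filter, Gbx1 gave 0.73 without overlap. Nkx2-1 (0.52) and Npas1 (-0.04) overlapped. The higher KO values of this list were therefore not limited to Zic1, although the further ones are dim and none was called. Of all probe sets tested, 14.4% had groups that did not overlap. The summed signal of 7 thalamic genes ran from 1498.9 to 1924.8 in KO and from 749.9 to 2253.6 in WT, highest in WT 1 and lowest in WT 2. That of 11 medium spiny neuron genes ran from 32988.0 to 36560.6 in KO and from 30877.8 to 36427.7 in WT, lowest in WT 3. Across 11 lists of other cell types 1 of 57 genes tested was called, where 0.47% of all probe sets tested were. It was Ttr of the choroid plexus (difference 0.91, limma adjusted p = 0.0347), with all 4 of its probe sets higher in KO. With no filter its limma adjusted p was 0.157. Its summed list ran from 2899.8 to 3965.4 in KO and from 1520.4 to 2487.5 in WT. The part of these other cells in the member values was not tested.

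The genes that flank the members were compared as well. Among the 50 nearest tested genes, 5 on each side of each member in the GRCm38.p6 table, 1 of 80 probe sets was called. Over all probe sets tested 0.47% were called. The called probe set belongs to Mapk8, a neighbour of Chat and Slc18a3 on chromosome 14. The other 4 Mapk8 probe sets were not called.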

How the data were processed

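Striatal RNA from 3 KO and 3 WT mice was hybridised to 1 Affymetrix array each, after RNeasy isolation and biotin labelling, per the labels. The authors deposited a linear intensity (signal) for each probe set, computed with MAS5 per the submitters' processing notes, without version or settings in the sources used here. Arrays arrived scaled to a 2% trimmed mean of 150.0, so changes are relative to the array's overall level. Groups and replicate numbers come from the sample titles, and separate mice are the replicates.

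Signals were taken to log2 after adding 16. Of 45101 probe sets, 64 controls were left out, and dim probe sets, up to the 40th percentile of mean log2 values (a signal of about 26.8), were not tested, which left 27022. KO and WT were compared with limma 3.58.1 in R 4.3.3 (lmFit, eBayes with intensity trend), with Benjamini-Hochberg adjustment over all tested and a threshold of 0.05. The fit was tested on simulated data. Exact permutation tests were two-sided. Named genes are all member probe sets, Ppargc1a, and per pathway list the called members or the 2 with the smallest p; Bche, further probe sets and list members are given beside them. The genes, lists and tests were chosen with earlier results of these data known. Alternatives were quantile normalization, median centring, offsets of 1 and 64, no filter or the 60th percentile, no trend, robust estimation, the replicate block and leaving out each mouse; those for the correlations were added after seeing the data.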

Additional observations from a re-analysis of the deposited data

How the results depend on the processing

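In all 15 alternative settings 0 member probe sets were called. The uncalled Slc5a7 difference turned from -0.0254 to 0.0203 with quantile normalization and to 0.0187 with median centring. Leaving out each mouse gave -0.195 to 0.214 for Slc5a7, -0.21 to 0.11 for Lhx8, -0.251 to 0.0654 for Isl1 1422720_at and -0.0354 to 0.0938 for Ache. Slc18a3, at 0.0295 to 0.1923, and Isl1 1450723_at, at -0.2794 to -0.0912, kept their signs. The r of Lhx8 with Isl1 1422720_at was 0.991 with median centring (adjusted exact permutation p = 0.0583) and 0.983 to 0.997 when a mouse was left out (adjusted exact permutation p from 0.0875 to 0.175); with 5 mice a single pair cannot pass the adjustment over 21 pairs, so these p-values say nothing about stability. Calls over the whole array, 127 in the main setting, were 52 without a filter, 25 without the intensity trend and 65 to 102 when a mouse was left out, lowest without KO 1 (65), WT 2 (70) and KO 2 (73); the pathway count was 0 to 1, the 1 being Lynx1. Without the intensity trend Ppargc1a probe sets 1437751_at and 1460336_at kept their -1.12 and -1.12 but lost their calls (limma adjusted p = 0.0873 and 0.117). The causes were not tested.

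Replicate numbers occur in both genotypes, but deviations of same-numbered mice correlated at only -0.02, -0.04 and 0.01. No strong effect shared by number was seen, which cannot show whether the mice were paired. With the replicate block 100 probe sets and 0 member probe sets were called. With 3 mice a group, Chat near background and Slc18a3 and Slc5a7 not far above it, changes within the intervals given are not excluded. The intervals are not adjusted for the number of probe sets tested, so they are not limits of detection.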
